A study of Mus musculus with 7 samples.

Results

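Elastin and its assembly partners, together with markers of the lung fibroblasts that make them, were followed in whole lungs of mice with and without the secretoglobin gene Scgb3a2. The set held 10 genes, picked by symbol from the 28828 entries of the count table: Eln, Fbn1, Lox, Loxl1, Mfap4, Pdgfra, Tcf21, Inmt, Npnt and Fn1. Collagens were left out of the set. All 10 passed the filter on low counts, which kept 19832 genes. Total RNA from lungs of C57BL/6 mice had been sequenced in 4 wild type libraries (WT2, WT3, WT4 and WT6) and 3 libraries from Scgb3a2 knockout mice (KO3, KO4 and KO5), named here by genotype and title number. Scgb3a2 encodes a small protein secreted mainly by club cells of the airway. The labels gave no treatment, sex, age, collection time or batch, and did not state how the knockout was made. They also did not say if the libraries were from separate mice. The p-values here measure the spread between libraries, which may be technical.

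Elastic fibres let the lung recoil after each breath. Their core is elastin, secreted as a soluble precursor, aligned on fibrillin microfibrils and cross-linked by enzymes of the lysyl oxidase family. In the lung wall most of this matrix is laid down by fibroblasts and smooth muscle cells, largely during the formation of the alveoli, and it turns over slowly in the adult.

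Library totals ranged from 13071262 to 16480006 counts. Scgb3a2 itself held 2636 to 4204 counts in the wild type libraries and 19 to 37 in the knockout libraries, so that the labels matched the targeted gene. WT6 and KO5 stood apart from the other 5 libraries on the leading principal component, which held 37.5% of the variance, at 36.3 and 49.98 against -30.5 to -5.59. On the second component, with 19.6% of the variance, wild type libraries lay at 3.09 to 26.7 and knockout libraries at -33.0 to -13.4. The log2 fold change of each of the 10 genes is also given without WT6 and KO5. Levels below are CPM, counts scaled to the size of each library after TMM normalization, and differences are log2 fold changes of knockout over wild type with their standard error (SE).

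None of the 10 genes passed the threshold between the genotypes (edgeR's quasi-likelihood test, Benjamini-Hochberg adjusted p = 0.9998 for each). Across all genes tested, 0.0353% passed, a total of 7. At an unadjusted p under 0.05, the count was 1 of 10, Inmt, beside 2.87% of all genes. DESeq2 called 0 of the 10, against 0.224% of all genes it tested. Of the log2 fold changes, 3 were above 0 and 7 below, with a median of -0.11 beside a median of -0.0068 over all genes. Without KO5 the median of the 10 was 0.0016, and without both WT6 and KO5 it was -0.05. Without both, the log2 fold change was -0.06 for Fbn1, -0.10 for Loxl1, -0.03 for Pdgfra, -0.29 for Tcf21, -0.09 for Npnt and 0.08 for Fn1. Those of the other 4 genes without both libraries stand with their own values below. The 95% intervals given below show the range of differences that the spread between libraries allows for a single gene. They are not adjusted for the number of genes tested. In whole tissue, fewer cells of a type and less RNA per cell cannot be told apart.

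**Figure D1:**
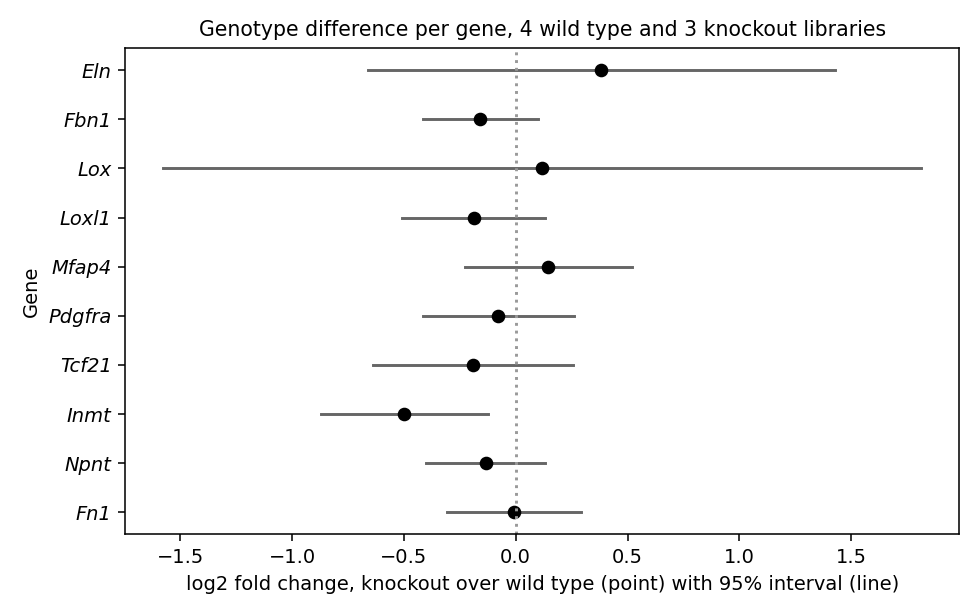
Log2 fold change of knockout over wild type (x axis; point, with the 95% interval as a line) for each of the 10 genes (y axis), from 4 wild type and 3 knockout libraries. The interval of Inmt lies below 0, those of the other 9 genes span it, and those of Eln and Lox are the widest.

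Eln and Lox, the elastin gene and the enzyme that cross-links its product, varied most, and did so within both genotypes. Eln stood at 158, 353, 452 and 199 CPM in WT2, WT3, WT4 and WT6, and at 418, 506 and 212 CPM in KO3 to KO5. WT2, WT6 and KO5 were thus low and the other 4 libraries high, whatever the genotype, and the highest library was 3.20 times the lowest. The group means were 290 ± 137 CPM (SD, n = 4) for wild type and 379 ± 151 CPM (SD, n = 3) for knockout. The log2 fold change of 0.38 ± 0.44 (SE) had a 95% interval from -0.66 to 1.43, or a fold of 0.632 to 2.69. Eln lies on the minus strand at chr5:134702593-134747323 (GRCm38, GENCODE M21), and its exons cover 8.098 kb. Without both WT6 and KO5 its log2 fold change was 0.53, and over the alternatives it ran from 0.12 without KO4 to 0.68 without WT4.

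Lox showed the same 3 low libraries. Its levels were 96.8, 366, 397 and 106 CPM in WT2, WT3, WT4 and WT6, and 302, 355 and 128 CPM in KO3 to KO5. No library fell between 128 and 302 CPM, and each side of that gap held libraries of both genotypes. Counts were high enough to make the gap much wider than counting error: WT2 had 1606 counts for Lox (exact Poisson 95% interval 92.1 to 102 CPM), KO5 had 1766 (122 to 134 CPM) and WT3 had 5726 (356 to 375 CPM). These intervals cover counting error only.

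The genotype means of Lox, 241 ± 162 CPM (SD, n = 4) in wild type and 262 ± 119 CPM (SD, n = 3) in knockout, differed by far less than the spread within either group. Its log2 fold change was 0.12 ± 0.68 (SE), with a 95% interval from -1.58 to 1.81, so that a fold anywhere from 0.335 to 3.51 lay within that interval. The sign turned with single libraries: it was -0.14 without WT2, -0.13 without WT6, -0.17 without KO4 and 0.45 without KO5. Without both WT6 and KO5 it was 0.20. Lox lies on the same chromosome as the targeted gene, chromosome 18, at a distance of 8.75 Mb.

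**Figure D2:**
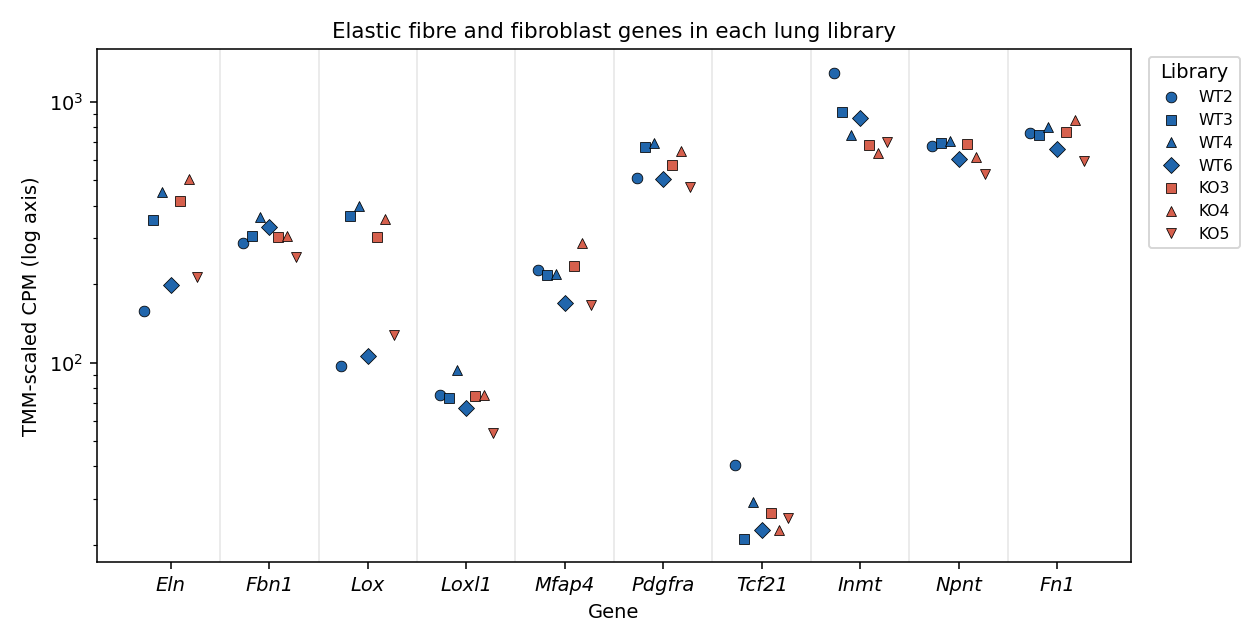
CPM (y axis, log scale) of the 10 genes (x axis) in each of the 7 libraries; blue symbols are wild type and red symbols knockout. Eln and Lox split into low values in WT2, WT6 and KO5 and high values in the other 4 libraries, while Inmt is the gene with all red symbols below all blue ones.

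Among 2285 genes with a mean of at least 100 CPM, the median ratio of the highest to the lowest library was 1.32. Lox, with a ratio of 4.10, exceeded 99.6% of these genes, and Eln exceeded 99.4% of them. By contrast Fbn1, at 1.42, exceeded 69.5%, and Npnt 52.7%. The scaffold gene and the elastin gene of the same fibre therefore differed widely in how much they varied over these libraries.

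The 3 libraries lowest for Eln were also the lowest 3 for Lox and Pdgfra, 2 of the other 9 genes of the set. Over all genes tested, 10.2% had the same lowest 3 libraries. Among 20 further elastic fibre genes, 3 had them, a count near that share. Loxl2, another lysyl oxidase, stood at 25.5, 50.2, 51.3 and 35.7 CPM in WT2, WT3, WT4 and WT6 and at 43.1, 44.0 and 29.4 CPM in the knockout libraries. Mfap2, a microfibril protein, and Thsd4, which promotes microfibril assembly, had the same lowest 3 libraries within narrower ranges of 22.4 to 38.1 and 88.4 to 111 CPM. Fbln5 and Efemp2, which tether elastin to the microfibril, did not: Fbln5 was highest in WT6, at 84.6 CPM, and Efemp2 in WT2, at 31.0 CPM.

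Of 12 tested proteases and inhibitors that govern elastin turnover, 6 had the same lowest 3 libraries: Mmp2, Mmp14, Ctss, Ctsl, Timp1 and Timp3. Timp3, a matrix-bound inhibitor of metalloproteinases, was at 963, 1747, 1771 and 1035 CPM in WT2, WT3, WT4 and WT6, and at 1669, 1627 and 1035 CPM in KO3 to KO5. It had no value between 1035 and 1627 CPM, again with both genotypes on each side. Mmp12, the macrophage elastase, was low throughout, at a mean of 3.35 CPM in wild type, against 3.07 CPM in knockout libraries.

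The genes with profiles closest to Eln were sought among 142 genes that had a mean of at least 5 CPM and varied at least as much as Eln. Likeness was the root mean square difference of centred log2 CPM over the 7 libraries. Tcf23, a basic helix-loop-helix factor, came first at 0.13, followed by Adora1 (0.22), Uchl1 (0.24) and Alpl (0.26). Tcf23 stood at 4.28, 10.7, 14.9 and 5.20 CPM in WT2, WT3, WT4 and WT6 and at 11.4, 12.5 and 5.36 CPM in the knockout libraries, the same division on a far lower level. Lox, the nearest gene of the set, was at 0.31.

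A pair of clock output genes, named after their values were seen, ran the other way. Dbp stood at 84.1, 25.9, 17.9 and 66.1 CPM in WT2, WT3, WT4 and WT6, and at 15.2, 10.1 and 45.0 CPM in KO3 to KO5. Nr1d1 stood at 128, 40.9, 38.5 and 109 CPM in the same wild type libraries, and at 21.5, 23.0 and 59.7 CPM in the knockout libraries. Both were thus highest in WT2, WT6 and KO5, where Eln and Lox were lowest. Arntl, which peaks in the opposite phase of the clock, was lower in WT2 and WT6, at 4.88 and 5.06 CPM, than in the other 5 libraries, at 7.98 to 17.6 CPM. Between the genotypes, the log2 fold change was -1.06 for Dbp (95% interval -3.03 to 0.92) and -1.19 for Nr1d1 (-2.78 to 0.40). For Arntl it was 0.89 (0.24 to 1.55), and none of these genes passed the adjusted threshold. The part of these differences in the result was not tested.

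**Figure D3:**
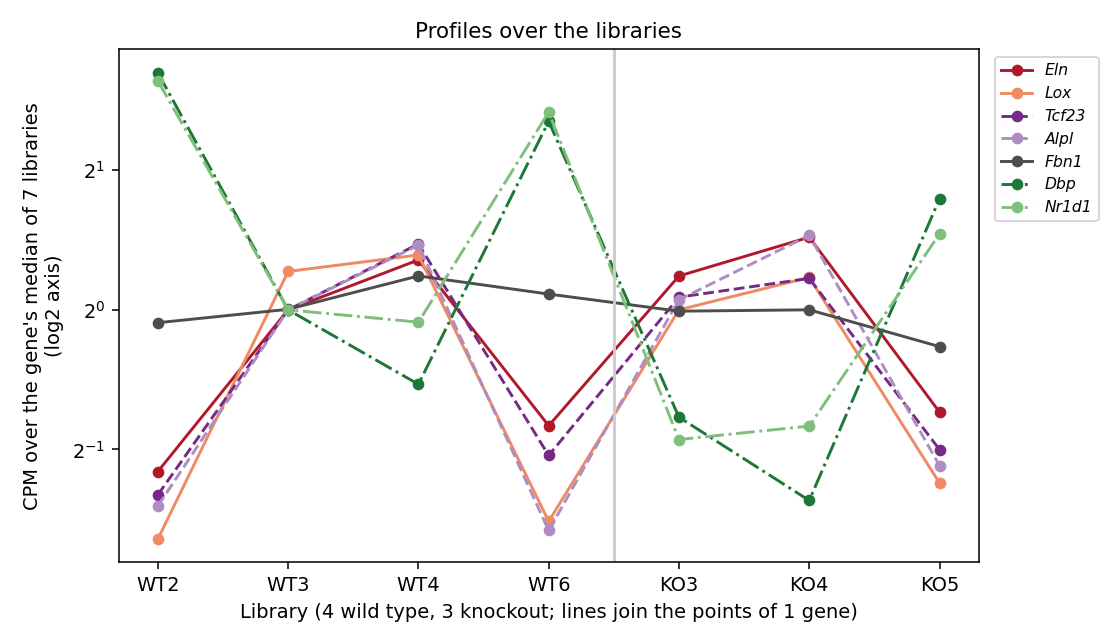
CPM of each gene divided by its own median over the 7 libraries (y axis, log2 scale) in each library (x axis, wild type left of the grey line). Eln, Lox, Tcf23 and Alpl are low in WT2, WT6 and KO5, Dbp and Nr1d1 are high there, and Fbn1 stays nearly level.

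Markers of tissues that adjoin the lung did not follow the same division. The summed level of 9 mesothelial markers was 325 CPM in WT6 and 308 CPM in KO5. It was 147 CPM in WT2, where Eln and Lox were lowest, and 131 to 183 CPM in the other 4 libraries. Summed heart muscle markers ranged from 384 to 839 CPM in wild type and from 371 to 454 CPM in knockout libraries. All 8 had negative log2 fold changes, median -0.68, 5 of them with an unadjusted p under 0.05, beside 2.87% of all genes, and none past the adjusted threshold. Without both WT6 and KO5 that median was -0.52. Summed adipocyte markers were highest in WT6, at 114 CPM, and lay between 19.0 and 40.9 CPM elsewhere. The median log2 fold change of the 5 tested adipocyte markers was -1.46, but 0.10 without WT6 and -0.49 without both WT6 and KO5. Of the cartilage markers, Comp, Cnmd and Matn3 fell below the filter, and the 4 tested had a median log2 fold change of -0.03. The part of heart, adipose and mesothelial RNA in the results was not tested.

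Summed markers of the alveolar epithelium were lowest in the same 3 libraries as Eln, over a narrower range, although most of the single markers were not. Those with the same lowest 3 libraries were 4 of 9 type 2 markers, among them the abundant surfactant genes Sftpc, Sftpa1 and Sftpb, and 3 of 9 type 1 markers, against 10.2% of all genes. The summed level of 9 alveolar type 2 cell markers was 15682, 15910 and 13887 CPM in WT2, WT6 and KO5 and 17891 to 19017 CPM in the other 4 libraries. For 9 type 1 cell markers the sums were 5920, 5144 and 4745 CPM in those 3 libraries and 6044 to 6304 CPM in the others. Their part in the levels of Eln and Lox was not tested.

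The microfibril genes varied less than Eln and Lox. Fbn1 encodes fibrillin, the scaffold onto which elastin is laid, and lies at chr2:125300594-125507993. It stood at 287, 307, 362 and 331 CPM in WT2, WT3, WT4 and WT6 and at 304, 306 and 255 CPM in KO3 to KO5. The groups overlapped, with a log2 fold change of -0.16 ± 0.12 (SE) and a 95% interval from -0.41 to 0.10.

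Mfap4 encodes a glycoprotein that binds elastin and fibrillin and lies at chr11:61485431-61488900. It was at 226, 216, 218 and 170 CPM in WT2, WT3, WT4 and WT6 and at 236, 286 and 167 CPM in KO3 to KO5. The lowest library of each genotype was therefore the one that stood apart, WT6 and KO5. Its log2 fold change came to 0.15 ± 0.17 (SE, 95% interval -0.23 to 0.52). It was 0.33 without KO5, when the 2 remaining knockout libraries lay above all wild type ones, and 0.25 without both WT6 and KO5. It turned to -0.05 without KO4. Groups of fewer libraries separate more easily by chance, and the share over all genes without KO5 was not taken.

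Loxl1, the lysyl oxidase relative needed for elastin renewal in adult tissue, lies at chr9:58287738-58313186. It was at 75.3, 73.2, 93.8 and 67.2 CPM in WT2, WT3, WT4 and WT6 and at 74.5, 75.4 and 53.7 CPM in KO3 to KO5. It thus lacked the division of libraries seen for Lox, and WT2 was its second highest wild type library. The log2 fold change was -0.19 ± 0.15 (SE, 95% interval -0.51 to 0.13).

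The wider elastic fibre list showed small differences. None of its 20 genes passed the adjusted threshold, and 16 of the 20 log2 fold changes were negative, beside 10303 of 19832 over all genes. They ranged from -0.27 to 0.14, with a median of -0.10. In 0 of the 20 did the knockout libraries lie all below or all above the wild type ones, beside 1.61% and 2.11% of all genes, so that 0 of 20 is near the background. Ltbp1, which anchors latent TGF-beta to the matrix, had the smallest unadjusted p by edgeR's quasi-likelihood test, 0.0499. Its levels were 187 ± 15.9 CPM (SD, n = 4) in wild type and 160 ± 11.7 CPM (SD, n = 3) in knockout.

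Other genes of that list lay within similar bounds. Mfap5, a microfibril glycoprotein, was at 28.5 ± 3.59 against 23.5 ± 1.61 CPM, and the fibulin gene Efemp1 at 106 ± 9.10 against 89.1 ± 14.8 CPM. Fbln1 and Fbln2, also fibulins, had log2 fold changes of -0.27 and -0.17, and Adamtsl4, a microfibril-associated protein, one of 0.14. Ltbp4, which guides elastin deposition in the lung, was at 450 ± 96.8 CPM in wild type, against 392 ± 26.3 CPM in knockout. Fbn2, the fibrillin of early development, was near the limit of measurement at 0.894 to 2.47 CPM.

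The turnover list had 6 positive and 6 negative log2 fold changes, median -0.0024, and none passed the threshold. Its largest was that of Slpi, an inhibitor of neutrophil elastase, at 0.60. It rested on KO5, with 17.7 CPM, while KO3 and KO4 at 7.23 and 9.42 CPM lay near the 6.09 to 8.86 CPM of the wild type libraries. Without KO5 it was 0.14, and without both WT6 and KO5 it was 0.23. Ctsk, a collagen- and elastin-degrading cathepsin, had a log2 fold change of 0.21 and Timp4, a metalloproteinase inhibitor, one of 0.18.

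Among the fibroblast genes, Inmt was the 1 gene of the set whose libraries separated by genotype. Inmt encodes an enzyme that transfers methyl groups to indoles and is an abundant transcript of mouse alveolar fibroblasts. It lies on the minus strand at chr6:55170626-55175043. It stood at 1290, 913, 743 and 863 CPM in WT2, WT3, WT4 and WT6, and at 683, 637 and 701 CPM in KO3 to KO5. All knockout libraries thus lay below all wild type libraries, with a gap from 701 to 743 CPM. Over all genes, 1.61% had all knockout libraries below all wild type ones and 2.11% had them above, and the 10 genes held 1 and 0.

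The knockout mean of Inmt, 674 ± 33.1 CPM (SD, n = 3), was 70.8% of the wild type mean of 952 ± 236 CPM (SD, n = 4). The log2 fold change was -0.50 ± 0.17 (SE, 95% interval -0.87 to -0.13), a fold of 0.708. Its unadjusted p by edgeR's quasi-likelihood test was 0.0131, and its adjusted p was 0.9998, with 0.325 as the lowest of the alternatives and values of at least 0.63 in all others. DESeq2 gave an adjusted p of 0.631. WT2 carried much of the size: without it the log2 fold change was -0.32. With library totals as the only scaling the groups overlapped, with a highest knockout library of 743 CPM and a lowest wild type library of 712 CPM. Without both WT6 and KO5 the log2 fold change was -0.57.

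The genes closest to Inmt in profile, among 1153 that varied at least as much, were Arhgef38 and Gbp9 (both 0.13), Gbp3 (0.14) and Ggt5 (0.15). Arhgef38 was at 93.1, 60.3, 51.1 and 76.4 CPM in WT2, WT3, WT4 and WT6 and at 51.4, 43.4 and 54.2 CPM in KO3 to KO5. WT2 was the highest library for both genes. Tcf21, at 0.27, was the nearest gene of the set.

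Tcf21 encodes the transcription factor that marks the lipid-storing fibroblast lineage of the lung and lies at chr10:22817281-22820174. It was at 40.4, 21.1, 29.2 and 22.9 CPM in WT2, WT3, WT4 and WT6, and at 26.5, 22.8 and 25.3 CPM in KO3 to KO5. As for Inmt, WT2 was the highest library, but here the knockout values lay inside the wild type range. The log2 fold change of -0.19 ± 0.20 (SE, 95% interval -0.64 to 0.25) became 0.03 without WT2.

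The bases just before the annotated start are shown for 3 genes of the set: Inmt, which separated by genotype, Tcf21, its nearest in profile, and Npnt, the least variable of the 10. The windows come from RefSeq (GRCm38.p6), run 5′ to 3′ on the gene's own strand and end at the base before the GENCODE start. Capitals mark matches, on either strand, to 3 motifs, none of which overlapped another. The TATA box was searched with the letters TATAAA. The CAAT box was searched as CCAAT. The GC box was searched as GGGCGG.
Inmt (chr6:55175044-55175240, minus strand): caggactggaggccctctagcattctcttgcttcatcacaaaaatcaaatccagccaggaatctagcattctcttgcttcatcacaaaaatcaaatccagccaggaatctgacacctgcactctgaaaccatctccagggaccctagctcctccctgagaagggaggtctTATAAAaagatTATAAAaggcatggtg
Tcf21 (chr10:22820175-22820393, minus strand): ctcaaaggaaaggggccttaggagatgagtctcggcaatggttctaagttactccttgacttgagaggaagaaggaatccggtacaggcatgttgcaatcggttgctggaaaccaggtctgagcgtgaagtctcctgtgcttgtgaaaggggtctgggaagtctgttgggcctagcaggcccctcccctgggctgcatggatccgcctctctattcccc
Npnt (chr3:132950292-132950541, minus strand): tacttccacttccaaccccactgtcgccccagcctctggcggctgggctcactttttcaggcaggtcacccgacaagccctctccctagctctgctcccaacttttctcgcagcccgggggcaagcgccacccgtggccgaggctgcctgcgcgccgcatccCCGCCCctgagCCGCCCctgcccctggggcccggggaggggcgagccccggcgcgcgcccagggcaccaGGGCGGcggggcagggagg

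The Inmt window held TATAAA at 2 places, beginning 27 and 16 bases before the GENCODE start, and had a GC content of 45.7%. The 53 bases between this window and the RefSeq start were cut, as GENCODE places its start farther upstream. Of 32851 RefSeq promoter windows of the same length, 197 bases, 9.85% held TATAAA, but those windows end at the RefSeq start. The Npnt window had a GC content of 74% and held the GC box at 3 places, 2 of them on the other strand, a motif present in 32.7% of windows of its length, 250 bases. The Tcf21 window, with a GC content of 54.8%, held none of the 3 motifs. Such a window was at hand for 4 of the 10 genes, and no match says only that these letters are not in the window.

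Pdgfra, the PDGF receptor that marks alveolar fibroblasts and the precursors of elastin-producing myofibroblasts, lies at chr5:75152292-75198215. It stood at 509, 671, 696 and 506 CPM in WT2, WT3, WT4 and WT6 and at 573, 649 and 471 CPM in KO3 to KO5. Its low libraries were those of Eln, within a narrower range. The log2 fold change was -0.08 ± 0.16 (SE, 95% interval -0.42 to 0.26), and it turned to 0.0058 without WT4 and 0.04 without KO5.

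None of 6 other PDGF ligands and receptors passed the threshold. There were 2 positive and 4 negative log2 fold changes, median -0.16. Pdgfa, the main ligand of this receptor, was at 48.8 ± 7.55 CPM (SD, n = 4) in wild type and 41.6 ± 5.88 CPM (SD, n = 3) in knockout. Pdgfrb, the receptor of pericytes, was at 236 ± 34.5 against 205 ± 18.4 CPM, and the ligand gene Pdgfd had a log2 fold change of 0.14.

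The marker lists of mesenchymal cells mostly had negative log2 fold changes, beside 52.0% of all genes, and none of their genes passed the threshold. This was not particular to them: 8 of 9 endothelial and 7 of 9 type 2 cell markers were negative too, against 3 of 12 macrophage and monocyte markers. Of 16 alveolar fibroblast and lipofibroblast markers, 14 had negative log2 fold changes, with a median of -0.16. In 1 of the 16, Rarres2, which encodes the chemoattractant chemerin, all knockout libraries (27.4 to 28.6 CPM) lay below all wild type ones (28.9 to 33.7 CPM), beside 1.61% of all genes. The summed level of the 16 was 6702 to 8404 CPM in wild type and 6267 to 6836 CPM in knockout libraries, highest in WT2. Much of that sum was 1 gene, Macf1, a cytoskeletal linker. Macf1 stood at 3425 to 4888 CPM in wild type, also highest in WT2, and at 3109 to 3851 CPM in knockout libraries. The sum therefore says little about the other markers. Macf1 had a log2 fold change of -0.26. Wnt2, a ligand of this fibroblast population, was at 7.74 ± 2.99 against 5.15 ± 1.25 CPM. Itga8, the integrin chain that pairs to bind nephronectin, was at 408 ± 60.5 against 348 ± 31.5 CPM.

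Adventitial fibroblast markers numbered 14, of which 11 were negative, median -0.09. Gsn, which severs actin filaments, was the 1 gene of that list with all knockout libraries, 2336 to 2764 CPM, below all wild type ones, 2765 to 3089 CPM, beside 1.61% of all genes. The lowest wild type library exceeded the highest knockout library by almost nothing. Of 12 smooth muscle and myofibroblast markers 8 were negative, median -0.13. Mylk, the kinase of myosin light chain, was at 576 ± 112 CPM in wild type, against 474 ± 22.0 CPM in knockout. It was the 1 gene of this list with all knockout libraries lower, again beside 1.61% of all genes. The gap was narrow here too, with knockout libraries at 449 to 490 CPM and wild type libraries at 493 to 740 CPM. Hhip and Des had log2 fold changes of -0.35 and -0.16. Among 9 pericyte markers 6 were negative, median -0.09, with Rgs5 at 0.35 and Trpc6 at -0.19.

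**Figure D4:**
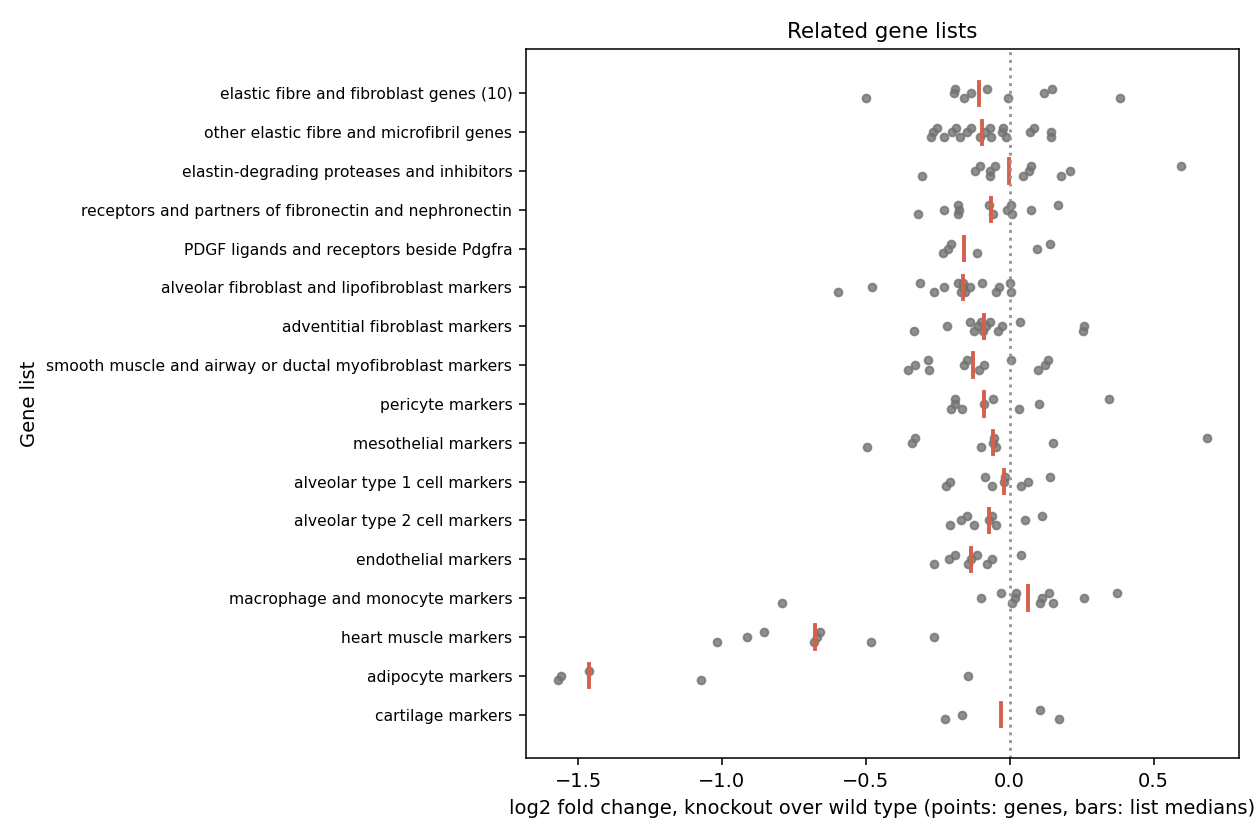
Log2 fold change of knockout over wild type (x axis) for each tested gene (grey points) of the 10 genes and 16 related lists (y axis), with list medians as red bars. The mesenchymal lists have medians between -0.16 and -0.09, the heart muscle list -0.68 and the adipocyte list -1.46, the last of which rests on WT6.

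The genes for adhesive matrix proteins varied less than Eln and Lox. The ratio of the highest to the lowest library was 1.33 for Npnt and 1.43 for Fn1. That of Fn1 exceeded 71.3% of the genes with a mean of at least 100 CPM. Npnt encodes nephronectin, a basement membrane ligand of the integrin containing the Itga8 chain, and lies at chr3:132881745-132950291. It stood at 676, 694, 704 and 601 CPM in WT2, WT3, WT4 and WT6 and at 688, 611 and 530 CPM in KO3 to KO5. The groups overlapped, with WT6 and KO5 the lowest of their genotypes, and the log2 fold change was -0.13 ± 0.12 (SE, 95% interval -0.40 to 0.13).

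Fn1 encodes fibronectin, onto which cells assemble fibrillin and other matrix, and lies at chr1:71585520-71653200. It stood at 761, 745, 800 and 660 CPM in WT2, WT3, WT4 and WT6 and at 768, 852 and 595 CPM in KO3 to KO5. WT6 and KO5 were again the lowest. The means, 741 ± 59.1 CPM (SD, n = 4) and 738 ± 131 CPM (SD, n = 3), were nearly equal, and the log2 fold change of -0.01 ± 0.14 (SE) had a 95% interval from -0.31 to 0.29. The closest profile to Fn1 among 6259 genes was that of Bgn, a small matrix proteoglycan, at 0.034, then Crcp (0.035), Rybp (0.043) and Arhgef5 (0.046).

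Of 12 receptors and partners of fibronectin and nephronectin, 4 had positive and 8 negative log2 fold changes, median -0.06, and none passed the threshold. Itgb6, an epithelial integrin chain that activates TGF-beta, was at 74.0 ± 15.5 CPM (SD, n = 4) in wild type and 59.3 ± 15.4 CPM (SD, n = 3) in knockout. Sdc4, a heparan sulfate coreceptor for fibronectin, was at 222 ± 31.8 against 196 ± 4.18 CPM.

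On a scale of CPM per kilobase of exon, which allows levels of different genes to be set side by side, Inmt was highest at a mean of 521 over the 7 libraries. Npnt followed at 128, Mfap4 at 113, Fn1 at 63.3, Pdgfra at 58.1, Lox at 52.3 and Eln at 40.5. Fbn1 at 25.3, Loxl1 at 22.2 and Tcf21 at 11.4 were the lowest. Inmt lay above Npnt, Mfap4 above Fn1, Fbn1 above Loxl1 and Loxl1 above Tcf21 in all 7 libraries. Npnt lay above Mfap4 in 6 of 7, with KO4 reversed. Fn1 and Pdgfra, with Fn1 higher in 5, and Pdgfra and Lox, with Pdgfra higher in 3, were not separated beyond their spread.

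The place of Lox and Eln in this order depended on the library. Lox ranged from 20.3 CPM per kilobase in WT2 to 83.04 in WT4, so that it ranked above Pdgfra and Fn1 in WT4 but below Fbn1 in WT2 and WT6. Eln ranged from 19.5 in WT2 to 62.5 in KO4. The order also moved with the length used. With the longest transcript in place of the union of exons, Eln was at 85.2. It was then level with Pdgfra, also at 85.2, and above Lox, at 52.7. The wild type mean of Inmt was 595 ± 148 CPM per kilobase (SD, n = 4) and the knockout mean 421 ± 20.7 (SD, n = 3), so that Inmt was the most abundant transcript of the set per length in both genotypes.

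**Figure D5:**
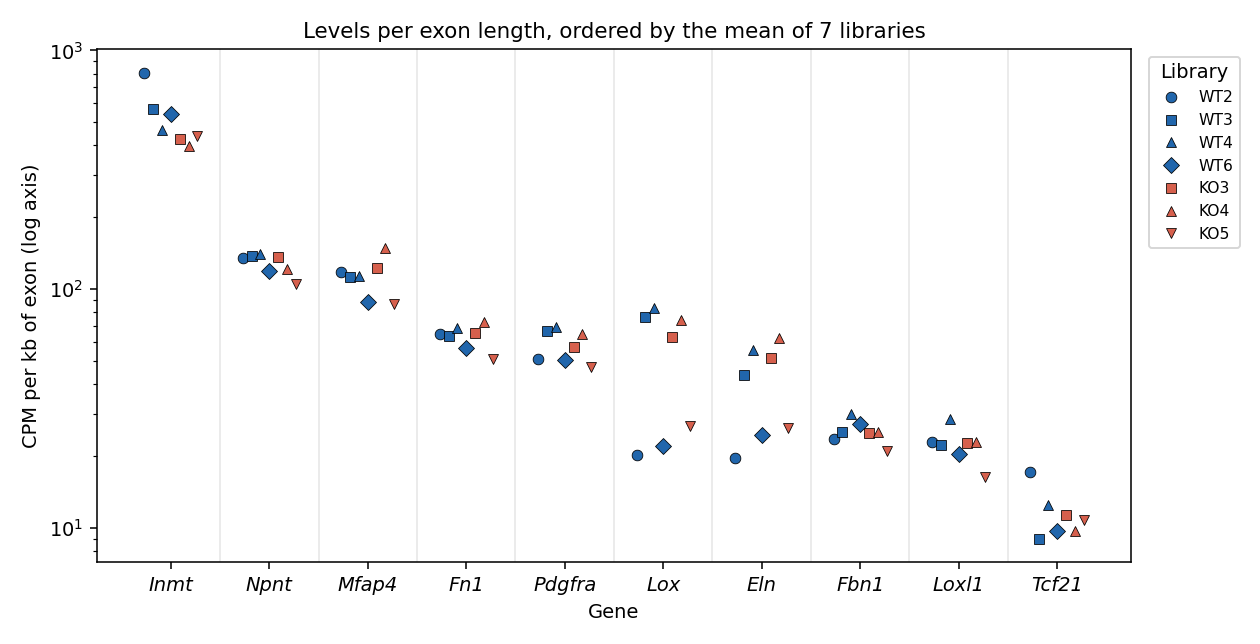
CPM per kilobase of exon (y axis, log scale) of the 10 genes, ordered by their mean (x axis), in each of the 7 libraries; blue symbols are wild type and red symbols knockout. Inmt lies above all other genes in every library, and Lox and Eln reach down to the level of Fbn1 and Loxl1 in WT2, WT6 and KO5.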

How the data were processed

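Whole-lung RNA of 4 wild type and 3 Scgb3a2 knockout libraries was measured by RNA sequencing. The authors deposited raw counts of reads for each gene, as whole numbers. Per the submitters' processing notes, STAR and DESeq2 were used with mm10, with neither versions nor roles stated. The read counter, the annotation and any strand setting were not given in the sources used here. Overlapping genes may have shared reads. Exons of 6 of the 10 genes overlap another gene in GENCODE M21: Eln, Fbn1, Fn1, Lox, Mfap4 and Pdgfra.

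Totals were 13071262 to 16480006 counts per library. No 2 libraries of a group agreed within sampling noise (smallest chi-square 4.30 per degree of freedom). Each library was counted once. Spread beyond sampling noise does not show that the libraries came from separate mice. Genes were tested with edgeR 4.0.16 in R 4.3.3 (filterByExpr, TMM, robust quasi-likelihood fit with genotype as the only term, two-sided, Benjamini-Hochberg over 19832 genes, threshold 0.05), a procedure first tested on simulated counts. Profiles used log2 CPM with a prior count of 2. Alternatives were DESeq2 1.42.0, limma-voom (limma 3.58.1), other scalings, no filter, a replicate block, a term for WT6 and KO5, leaving out both, and leaving out each library in turn.

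The genes and lists were chosen with earlier results of these data known. Named genes are the 10, Scgb3a2, the 3 lowest p-values of each other list (6 for the elastic fibre list) and the 4 nearest profiles to Eln, Inmt and Fn1. Dbp, Nr1d1, Arntl, Pck1, Loxl2, Mfap2, Thsd4, Timp3, Fbn2, Fbln5, Efemp2, Ltbp4, Mmp12 and the turnover genes listed by their lowest libraries were named after their values were seen.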

Additional observations from a re-analysis of the deposited data

Results flagged for a closer look

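In 7 of 85 gene profiles examined, 1 of the 4 wild type libraries stood far from the other 3 by Dixon's criterion. Chance alone meets it in about 5% of groups chosen without regard to their values. Here Pck1 was named after its values were seen and Bgn as a near profile of Fn1, so that the shares cannot be compared. Mfap4, of the elastic fibre genes, was at 169.7 CPM in WT6, below 216 to 226 CPM in the others. WT6 also stood apart for Bgn, low at 536 CPM, and for Timp4 at 5.63 CPM, Cidea at 6.19 CPM and Pck1, a gluconeogenic enzyme also found in fat, at 45.9 CPM, all high. WT3 was low for Gsn, at 2765 CPM, and for Tnni3, a heart muscle gene, at 19.5 CPM.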

How the results depend on the processing

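None of the 10 genes passed the threshold under any of the 15 alternatives, where the lowest adjusted p was 0.325, for Inmt with the replicate block. Inmt (-0.60 to -0.32), Eln, Fbn1, Loxl1 and Npnt kept their sign under all 15. Of 150 gene values, 16 changed sign, in 5 genes, and none of these had passed the test. Fn1 was 0.0041 with library totals only, 0.0095 with a term for WT6 and KO5, 0.078 without both, and -0.12 to 0.13 when 1 library was left out. Lox was -0.22 with the replicate block and -0.17 to 0.47 when 1 library was left out. The ranges without 1 library were -0.046 to 0.33 for Mfap4, -0.19 to 0.041 for Pdgfra and -0.31 to 0.028 for Tcf21. The count of genes of the set without overlap was 0 with library totals only and 2 (Inmt and Mfap4) without WT6 and KO5. It was 1 to 2 when 1 library was left out, where the second was Fbn1 without WT2 and Mfap4 without KO5. Groups of fewer libraries separate more easily by chance, and the share over all genes was taken only with all libraries. Over all genes, 7 passed, against 56 with DESeq2, 29 with the term, 14 without both libraries and 3 to 41 when 1 library was left out. The causes were not tested.

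With the replicate block 140 genes passed, and Fn1 was 0.067. Title numbers 3 and 4 alone occur in both genotypes, so that the genotype term of that fit rested on WT3, WT4, KO3 and KO4. WT2, WT6 and KO5 each took a term of their own, which left very little from which to estimate the spread. Deviations from the group means correlated at 0.236 and 0.201 within these numbers and at 0.221 and 0.236 across them. These values were alike, but so few pairs cannot exclude a shared origin of libraries with the same number. Refits of Slpi, Msln, Fabp4 and the heart, adipocyte, mesothelial and alveolar fibroblast lists without WT6, KO5 or both were chosen after seeing the data. Msln, 0.68 with all libraries, was -0.28 without KO5 and 1.38 without WT6. Low counts limited single genes such as Fbn2, at 0.894 to 2.47 CPM.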

Other observations

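Lists for other cells of the lung wall also held no gene past the threshold. Of 9 endothelial markers, 8 had negative log2 fold changes, median -0.13, and Kdr, the VEGF receptor of capillaries, had all knockout libraries (336 to 363 CPM) below all wild type ones (372 to 501 CPM), 1 of 9 beside 1.61% of all genes. Cldn5, a tight junction gene, and Vwf, a clotting factor, had log2 fold changes of -0.21 and -0.13. Alveolar type 1 markers had a median of -0.02 and type 2 markers one of -0.07, with 6 and 7 of 9 negative. Lamp3, a lamellar body gene of type 2 cells, was at 550 ± 55.9 CPM (SD, n = 4) in wild type and 476 ± 75.1 CPM (SD, n = 3) in knockout. Macrophage and monocyte markers were positive in 9 of 12, median 0.06, with Marco, a scavenger receptor, at 0.37 and Fabp4, which fat cells also express, at -0.79. Fabp4 was at 51.3 CPM in WT6 and at most 18.1 CPM in each other library, and without WT6 its log2 fold change was -0.03. Mesothelial markers were negative in 7 of 9, median -0.06, although Msln, their surface marker, was at 55.3 CPM in WT6 and 82.1 CPM in KO5 and at most 29.1 CPM elsewhere. The mesothelial median was 0.44 without WT6, -0.51 without KO5 and -0.07 without both.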
